A study of Mus musculus with 36 samples.

Results

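Contacts between the endoplasmic reticulum (ER) and mitochondria were followed here through 9 genes, chosen by gene symbol: the tether pair Vapb and Rmdn3, the contact regulator Pacs2, the ER calcium channels Itpr1 and Itpr3, the outer membrane channels Vdac1, Vdac2 and Vdac3, and the inner membrane calcium uniporter Mcu. All 9 were among the 14761 genes of the table, and all 9 passed the filter on low values that left 14293 genes for testing.

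The RNA came from mouse embryonic fibroblasts (MEFs), and the study asked how the mitofusins, which fuse mitochondrial outer membranes, bear on the formation of fat cells. Mfn1-/- MEFs and WT MEFs (libraries A to C) were sequenced at day -2, when the cells reached confluence, at day 0, when the adipogenic cocktail was started, and at day +3 and day +8. Mfn2-/- MEFs and a further set of WT MEFs (libraries D to F) were sequenced at day -2 and day +8. Each of these 12 groups held 3 libraries, and the cocktail contained rosiglitazone, IBMX, dexamethasone and insulin with pantothenic acid and biotin. Each genotype was 1 line from the American Type Culture Collection and the lines came from different mice, so that the loss of a mitofusin and any other difference between the lines cannot be told apart. The labels call the 3 libraries of a group independent biological replicates without saying how the cultures were kept apart. The p values therefore measure only the spread between libraries within groups, which the main fit pools for each gene over all 12 groups.

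At a contact site the 2 membranes lie close enough for proteins to bridge them, and lipids and calcium pass from the ER into mitochondria. The ER protein VAPB binds RMDN3 (also called PTPIP51) in the mitochondrial outer membrane, and the pair is a well known bridge. Calcium leaves the ER through inositol trisphosphate receptors, encoded by Itpr1, Itpr2 and Itpr3, crosses the outer membrane through the voltage-dependent anion channels (VDACs) and enters the matrix through the uniporter MCU. PACS2 is a sorting protein that keeps the membranes apposed in human cells. MFN2 itself lies partly in the ER and has been proposed as a tether, so its RNA is given beside that of the 9 genes. Fat cells gain mitochondria as they form, and the ER is where they make the lipid they store.

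Normalized counts below are read counts that were divided by 1 factor per library, and total reads ran from 8800674 to 37011894 per library. A difference is on the scale of log2(value + 1), knockout minus WT unless stated otherwise, and passing means an adjusted p under 0.01 in limma over all 14293 genes. The fibroblast list (10 of 11 genes in the table) was high in all groups, at summed normalized counts of 84498 or more in each library. Of the adipocyte list, 5 of 10 genes were in the table, and the defining genes Adipoq, Plin1 and Cidec were not among them. At day +8 the summed normalized counts of these 5 genes were 163794 to 185768 in Mfn1-/- against 11157 to 14385 in WT A to C, and 1603 to 1799 in Mfn2-/- against 21317 to 42785 in WT D to F. Such bulk values cannot tell a change in the number of cells of a type from a change in RNA per cell. Mfn1 RNA itself was 172 ± 14.2 in Mfn1-/- against 1343 ± 99.5 in WT A to C at day -2, but 851 ± 266 against 859.8 ± 52.0 at day +8 (SD, n = 3 each). The day +8 libraries therefore go against their label in the targeted gene, and Mfn1-/- at day +8 means the libraries labelled Mfn1-/- throughout.

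**Figure D1:**
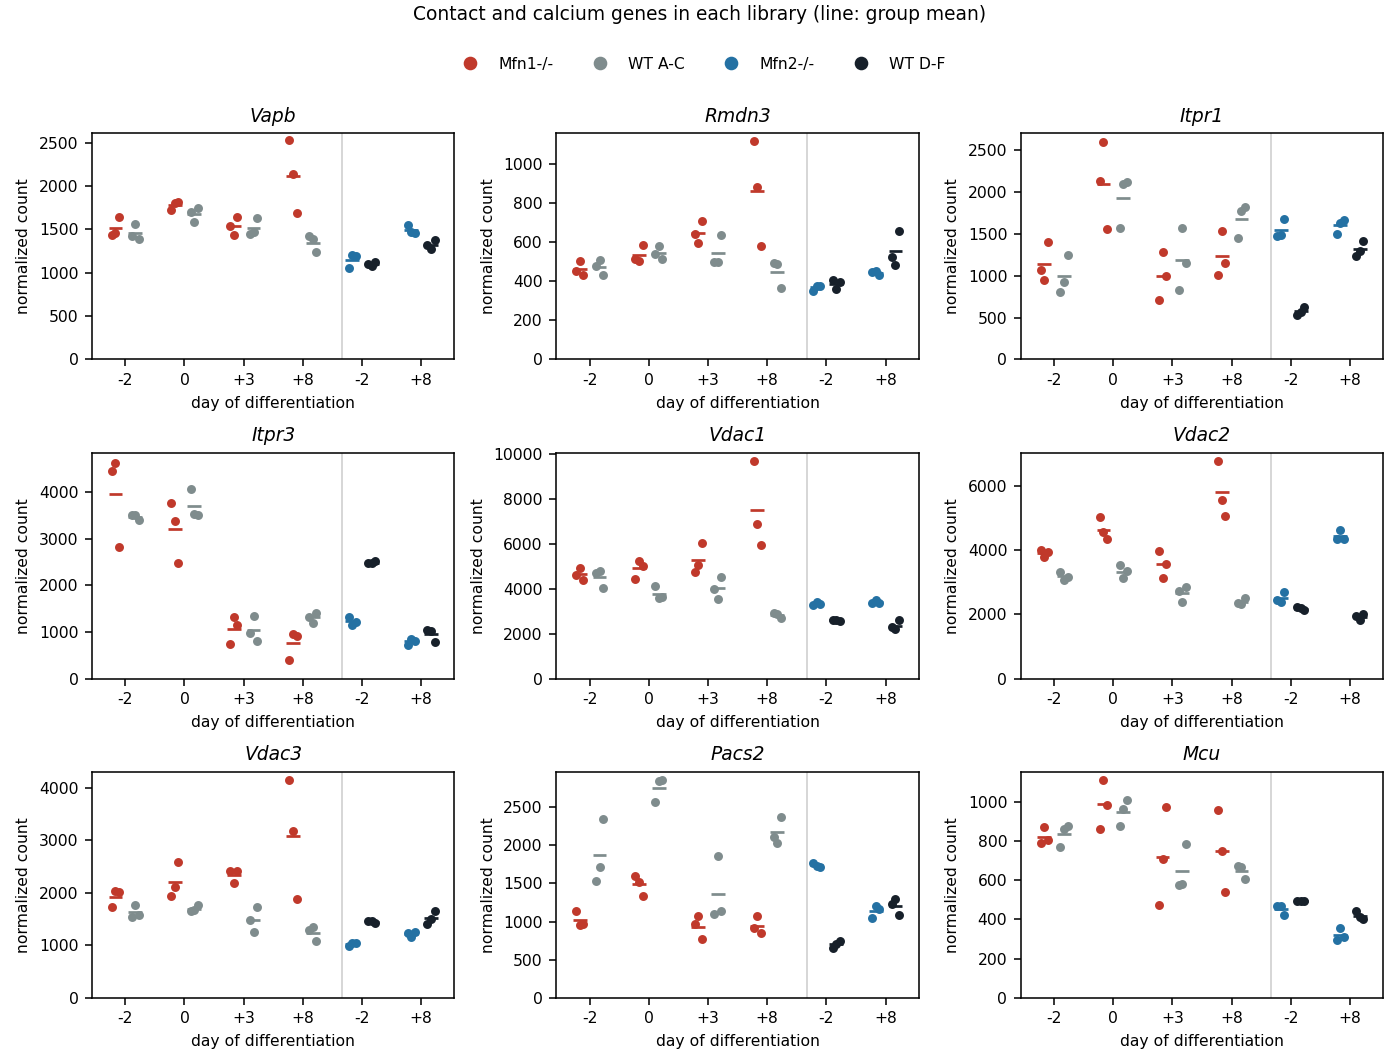
Normalized counts (y axis, linear and starting at 0) of each of the 9 genes in each of the 36 libraries, by day of differentiation (x axis) and line, with the knockout left of the WT libraries scaled together with it. Points are single libraries and short lines are group means. The 3 Vdac genes stood above all WT A to C libraries in the libraries labelled Mfn1-/- at day +8, while Mcu libraries of the knockout lines lay close to their WT at most days.

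Across all 6 comparisons with WT, the number of the 9 genes that passed was 1, 2, 2 and 7 for Mfn1-/- at day -2, 0, +3 and +8, and 3 and 2 for Mfn2-/- at day -2 and +8. Of all tested genes, 22.4%, 21.5%, 21.5% and 50.2% passed in the Mfn1-/- comparisons in the same order of days, and 35.5% and 38.1% in the Mfn2-/- comparisons. The count of 7 of 9 at day +8 lay above the share of all genes, and the other counts lay near or below it and give no result about the genes as a group. At day +8 the median difference over the 9 genes was 0.64 in Mfn1-/- against -0.07 over all genes, and in Mfn2-/- it was -0.08 against -0.03. Fitted on only the 6 libraries of the Mfn1-/- comparison at day +8, 4 of the 9 genes passed (Vdac1, Vdac2, Vdac3 and Pacs2). In the same kind of fit, more of the 9 genes passed in Mfn2-/- than in the main fit, at both days. The larger count in Mfn1-/- than in Mfn2-/- at day +8 was not seen in those fits. Their share of all genes is not given here, so their counts give no result about the genes as a group.

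**Figure D2:**
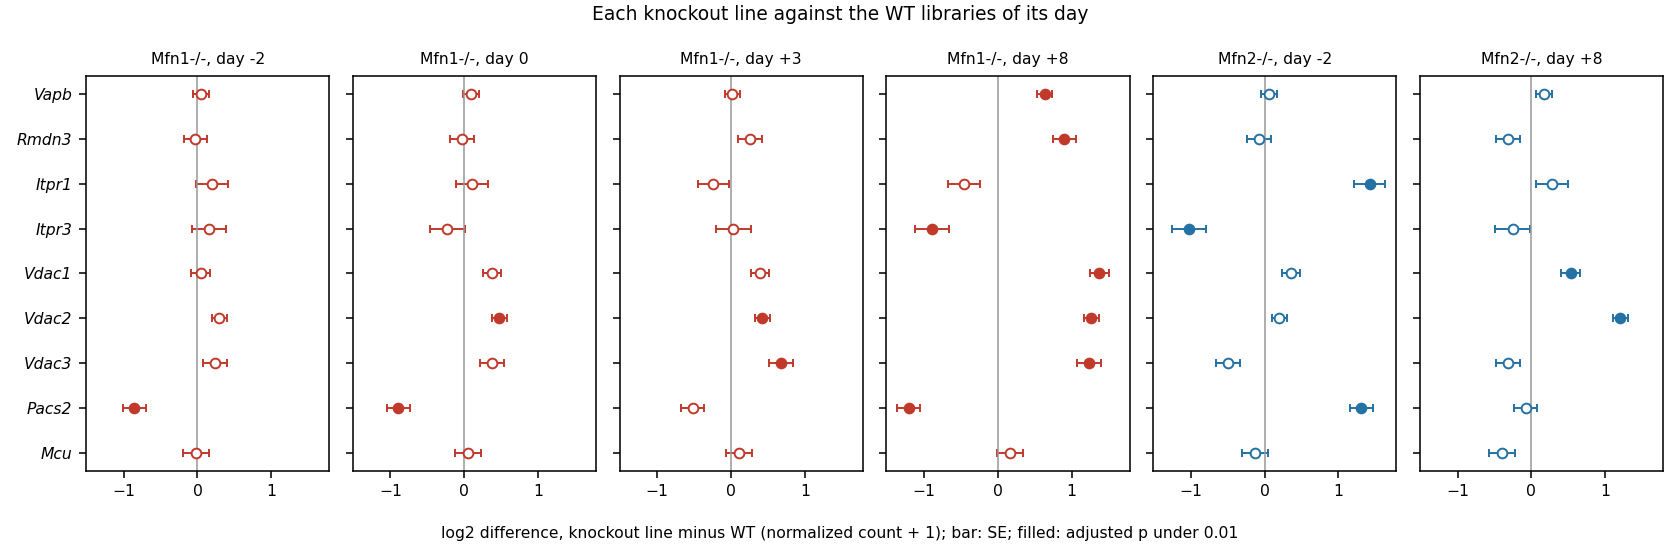
Log2 difference, knockout minus WT, of the 9 genes in the 6 comparisons (x axis, log2 units), with bars of 1 SE from limma. Filled points passed at an adjusted p under 0.01. The libraries labelled Mfn1-/- at day +8 had 5 genes higher and 2 lower than WT.

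Vapb and Rmdn3, which encode the partners of the tether, were close to WT in both knockout lines before differentiation, and both were higher in Mfn1-/- at day +8. Vapb (ENSMUSG00000054455, chr2:173737511-173784336, plus strand, GRCm38) had 2535, 2144 and 1689 normalized counts in the Mfn1-/- libraries at day +8, against 1424, 1385 and 1241 in WT A to C. Every Mfn1-/- library was above every WT library, with a difference of 0.64 ± 0.11 (SE, adjusted p = 5.74e-06). Rmdn3 (ENSMUSG00000070730, chr2:119137001-119157034, minus strand) had 1118, 882 and 582 normalized counts in Mfn1-/- against 491, 488 and 365 in WT A to C on the same day. Again the groups did not overlap, library C of Mfn1-/- lying closest to WT, and the difference was 0.90 ± 0.16 (SE, adjusted p = 1.27e-05). Both calls were lost when only the 6 libraries of the comparison were fitted (adjusted p = 0.0188 for Vapb and 0.0143 for Rmdn3), with no other alternative doing so.

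At the 3 earlier days the pair did not pass in Mfn1-/-. Vapb differences were 0.05, 0.09 and 0.02 at day -2, 0 and +3 (SE 0.11 each), and Rmdn3 differences were -0.03, -0.03 and 0.26 (SE 0.16 each). The Mfn1-/- effect was larger at day +8 than at day -2 for Vapb by 0.59 ± 0.15 (SE, adjusted p = 0.00239) and for Rmdn3 by 0.93 ± 0.22 (SE, adjusted p = 0.00138). The Vapb call was lost when only the comparison's own libraries were fitted (adjusted p = 0.0436), with DESeq2 (0.0204), with a term for the replicate letter over all days (0.018) and without Mfn1-/- library A of day +8 (0.0134), and the Rmdn3 call when only the comparison's own libraries were fitted (0.0261).

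In Mfn2-/- neither gene of the pair passed against WT D to F. At day +8 Vapb had 1546, 1476 and 1464 normalized counts in Mfn2-/- against 1323, 1279 and 1376 in WT D to F (log2 difference 0.17, SE 0.11, adjusted p = 0.175), and Rmdn3 had 449, 451 and 430.3 against 526, 485 and 659.7 (log2 difference -0.32, SE 0.16, adjusted p = 0.0969). Against all 6 WT libraries of the day the Vapb difference was 0.36 and passed (adjusted p = 0.0064). For Rmdn3 the Mfn1-/- effect at day +8 exceeded the Mfn2-/- effect by 1.22 ± 0.22 (SE, adjusted p = 3.94e-05), and this held in all 20 alternatives. The same difference for Vapb was 0.46 ± 0.15 (SE, adjusted p = 0.0109) and did not pass, though it did with the filter at 50 (adjusted p = 0.0093), with edgeR (0.00654) and without Mfn1-/- library C (2.92e-04).

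Of the 5 genes that rose together in Mfn1-/- at day +8, Vapb, Rmdn3 and Vdac1 had a window in the set of RefSeq promoters used. These windows are shown so that they can be compared. The windows run from 250 bases before to 50 bases after the RefSeq gene start (GRCm38.p6), 5′ to 3′ on the gene's strand, and capitals mark matches to the motifs named below them.
Vapb, chr2:173737321-173737620, plus strand: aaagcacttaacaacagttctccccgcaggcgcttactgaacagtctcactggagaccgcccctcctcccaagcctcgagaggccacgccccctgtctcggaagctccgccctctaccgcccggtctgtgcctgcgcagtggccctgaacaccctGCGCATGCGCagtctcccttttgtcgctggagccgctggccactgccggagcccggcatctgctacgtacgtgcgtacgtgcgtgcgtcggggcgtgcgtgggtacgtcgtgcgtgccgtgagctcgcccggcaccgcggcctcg
Rmdn3, chr2:119156985-119157284, minus strand: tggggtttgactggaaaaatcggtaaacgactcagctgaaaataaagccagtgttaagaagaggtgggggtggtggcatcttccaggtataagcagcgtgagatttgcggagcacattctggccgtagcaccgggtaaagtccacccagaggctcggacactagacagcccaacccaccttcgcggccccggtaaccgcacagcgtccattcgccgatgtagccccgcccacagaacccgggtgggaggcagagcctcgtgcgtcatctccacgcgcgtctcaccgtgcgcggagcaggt
Vdac1, chr11:52360601-52360900, plus strand: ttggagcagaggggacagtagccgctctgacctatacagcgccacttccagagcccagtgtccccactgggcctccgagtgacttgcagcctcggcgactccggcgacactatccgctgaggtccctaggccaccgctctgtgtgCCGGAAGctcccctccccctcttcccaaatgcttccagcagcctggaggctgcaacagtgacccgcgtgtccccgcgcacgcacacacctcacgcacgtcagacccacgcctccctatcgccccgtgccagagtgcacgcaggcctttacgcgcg
The motifs searched on both strands were GCGCA and GCGC with 1 free base between them (NRF1, a regulator of nuclear genes for mitochondrial proteins), CCGGAAG (ETS factors), CACGTG (E-box) and a pair of AGGNCA with 1 free base between them (PPAR:RXR, the receptor pair that rosiglitazone acts on). The Vapb window held 1 NRF1 match, from -95 to -86 relative to the gene start, and the first of 2 Vdac1 windows held 1 ETS match, from -105 to -99. The Rmdn3 window and the other Vdac1 window held none of the 4 motifs, and no match overlapped another. Of all 32851 windows, 4.6% held the NRF1 motif, 8.86% the ETS motif, 7.15% the E-box and 0.381% the PPAR:RXR motif. Among the other members with a window, Pacs2 held 1 ETS match from -189 to -183, Itpr3 held 1 E-box from -85 to -80 and Mcu held none. In all, 6 of the 9 genes matched a window in the set used. Itpr1, Vdac2 and Vdac3 matched none in that set and are named only, which says nothing about RefSeq itself.

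Pacs2, the sorting protein of the contact, was lower in Mfn1-/- than in WT A to C at 3 of 4 days and higher in Mfn2-/- than in WT D to F at day -2. The gene (ENSMUSG00000021143) lies at chr12:113014508-113074401, plus strand. At day -2 it had 1135, 955 and 965 normalized counts in Mfn1-/- against 1534, 1721 and 2346 in WT A to C (log2 difference -0.85, SE 0.16, adjusted p = 6.47e-05). At day 0 it had 1596, 1521 and 1341 against 2573, 2841 and 2852 (log2 difference -0.89, SE 0.16, adjusted p = 3.54e-05). No Mfn1-/- library reached a WT library on either day.

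At day +3 Pacs2 had 963, 1069 and 771 normalized counts in Mfn1-/- against 1095, 1855 and 1142 in WT A to C, where WT library B stood above the other WT libraries, and the difference of -0.52 ± 0.16 (SE, adjusted p = 0.0108) did not pass. It passed in 5 alternatives, which were TMM rescaling (adjusted p = 0.00878), edgeR (0.00983) and leaving out WT library A (0.00326), WT library C (0.00549) or Mfn1-/- library B (0.00608). At day +8 it had 914, 1069 and 850.0 in Mfn1-/- against 2114, 2027 and 2375 in WT A to C, less than the lowest WT library in each case (log2 difference -1.20, SE 0.16, adjusted p = 9.51e-08). The calls at day 0 and day +8 held under every alternative. The call at day -2 was lost against all 6 WT libraries of the day (difference -0.54, adjusted p = 0.0246).

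In Mfn2-/- the order at day -2 was the other way round, with 1769, 1726 and 1720.2 normalized counts in Mfn2-/- against 657, 707 and 741 in WT D to F (log2 difference 1.31, SE 0.16, adjusted p = 2.43e-08). At day +8 the groups overlapped, at 1044, 1209 and 1165 in Mfn2-/- against 1227, 1301 and 1083 in WT D to F (log2 difference -0.08, SE 0.16, adjusted p = 0.704). The Mfn1-/- effect minus the Mfn2-/- effect was -2.16 ± 0.22 (SE, adjusted p = 2.79e-09) at day -2 and -1.13 ± 0.22 (SE, adjusted p = 9.07e-05) at day +8, and the Mfn2-/- effect at day +8 minus that at day -2 was -1.39 ± 0.22 (SE, adjusted p = 2.07e-05), each under all 20 alternatives run for it.

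The 2 WT sets also differed from each other in Pacs2 at day -2. Rescaled together by TMM, WT A to C had 1335, 1497 and 2030.3 counts and WT D to F had 913, 976 and 1018, and the Mfn1-/- libraries had 951, 814 and 804. On that common scale Mfn1-/- lay near WT D to F, and the Mfn2-/- libraries, at 2441, 2387 and 2381, lay above all WT libraries of the day. Against all 6 WT libraries the Mfn2-/- difference at day -2 was 0.95 (adjusted p = 1.18e-04). These values cross the 2 sets of libraries, which also differed in the reads assigned to a pseudogene of Vdac3, as given below. The part of such set differences in the levels was not tested.

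Of the ER release channels, Itpr3 had the largest share per kilobase of exon at day -2 in every line, and Itpr1 took a larger share in Mfn2-/- than in WT D to F. In counts not divided by length, Itpr1 lay above Itpr3 in Mfn2-/- on that day. The order of the 2 genes there thus depends on the exon lengths used, 18319 bases for Itpr1 and 9019 for Itpr3. Itpr1 (ENSMUSG00000030102, chr6:108213096-108551109, plus strand) had 1469.8, 1483 and 1681 normalized counts in Mfn2-/- at day -2, against 528, 569.6 and 629.5 in WT D to F (log2 difference 1.42, SE 0.21, adjusted p = 1.80e-06). Itpr3 (ENSMUSG00000042644, chr17:27057304-27122223, plus strand) had 1314, 1144 and 1221 in Mfn2-/- against 2469.6, 2469.9 and 2532 in WT D to F (log2 difference -1.02, SE 0.24, adjusted p = 6.21e-04). The 2 genes thus moved in opposite directions with no overlap between groups, and both calls held under every alternative.

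Per kilobase of exon, Itpr1 made up 38.2 ± 2.48% of the 3 receptor genes in Mfn2-/- at day -2, against 10.1 ± 0.717% in WT D to F, and Itpr3 made up 61.5 ± 2.53% against 88.5 ± 0.349% (SD, n = 3 each). In Mfn1-/- on that day the shares were 12.6 ± 5.41% for Itpr1 and 83.5 ± 6.10% for Itpr3, against 12.1 ± 2.57% and 86.0 ± 2.74% in WT A to C. The Mfn1-/- effect at day -2 minus the Mfn2-/- effect was -1.23 ± 0.30 (SE, adjusted p = 0.00211) for Itpr1 and 1.18 ± 0.33 (SE, adjusted p = 0.00683) for Itpr3. The Itpr1 call was lost without WT A to C library C of day -2 (adjusted p = 0.0102). The Itpr3 call was lost without any 1 of 10 of the 12 libraries, the exceptions being Mfn1-/- C and Mfn2-/- A, with adjusted p up to 0.0243.

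Beside the receptor genes at day -2, the mesothelial list (7 of 8 genes in the table, Krt8 being missing) summed to 32877 to 36717 normalized counts in Mfn2-/- against 1313 to 1380.0 in WT D to F, where Lrrn4 was at 0. The fibroblast list summed to 90548 to 96744 against 200512 to 218483. The part of such cell features in the Itpr1, Itpr3 and Pacs2 differences was not tested.

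In Mfn1-/- neither receptor gene passed at day -2, 0 or +3, and at day +8 Itpr3 was lower. It had 403, 958 and 905 normalized counts in Mfn1-/- against 1322, 1199 and 1414 in WT A to C (log2 difference -0.89, SE 0.24, adjusted p = 0.0017), with library A the lowest. The call was lost when only the comparison's own libraries were fitted (adjusted p = 0.0339), with DESeq2 (0.0303) and without Mfn1-/- library A (0.0461). Itpr1 had 1011, 1537 and 1156 in Mfn1-/- against 1450.0, 1769 and 1827 in WT A to C, the groups overlapped and the difference of -0.46 ± 0.21 (SE, adjusted p = 0.062) did not pass. In Mfn2-/- at day +8 the Itpr1 difference from WT D to F was 0.28 and did not pass in the main fit (adjusted p = 0.288). It passed as higher with only the comparison's own libraries (0.0032) and with DESeq2 (0.00245).

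Itpr2, the receptor gene that is no member, is given because it changes the makeup of the family. It had 903 ± 188 normalized counts in Mfn1-/- at day +8 against 188 ± 75.1 in WT A to C (SD, n = 3 each), a difference of 2.31 (adjusted p = 1.13e-08), and 26.7 ± 2.95 in Mfn2-/- against 116 ± 26.3 in WT D to F, a difference of -2.05 (adjusted p = 1.35e-07). Its share of the family per kilobase at day +8 was 29.8 ± 10.6% in Mfn1-/- against 5.00 ± 1.59% in WT A to C, and 1.02 ± 0.114% in Mfn2-/- against 4.24 ± 1.18% in WT D to F. The share of Itpr3 was 38.5 ± 11.2% in Mfn1-/- against 58.2 ± 3.07% in WT A to C, so that no receptor gene held most of the family in the libraries labelled Mfn1-/-.

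**Figure D3:**
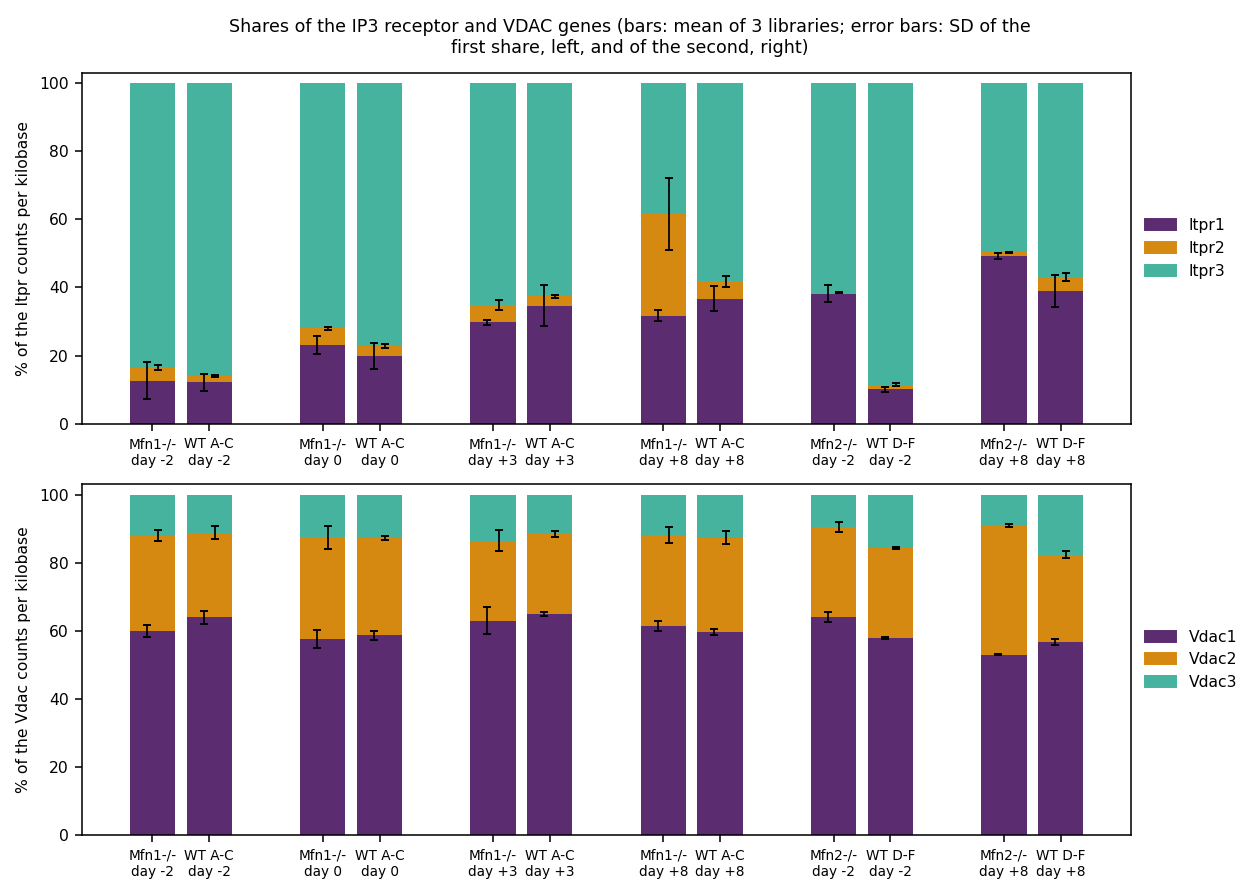
Share of each receptor gene among Itpr1, Itpr2 and Itpr3, and of each channel gene among Vdac1, Vdac2 and Vdac3, in percent of the family's counts per kilobase of exon, by group. Each stacked bar shows the means of 3 libraries, the error bar at its left 1 SD of the lowest share and that at its right 1 SD of the middle share. Itpr3 made up 38.5% of its family in Mfn1-/- and 49.7% in Mfn2-/- at day +8, against 58.2% in WT A to C and 56.8% in WT D to F. By this measure Vdac1 was the largest part of its family in all 12 groups. In counts not divided by length, Vdac2 lay above Vdac1 in Mfn2-/- at day +8, so the order there depends on the exon lengths.

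The 3 channel genes of the outer membrane had the largest rises of the 9 genes in Mfn1-/- at day +8. Vdac1 (ENSMUSG00000020402, chr11:52360860-52389397, plus strand), the gene of the most studied isoform, had 9696, 6878 and 5951 normalized counts in Mfn1-/- against 2904, 2878 and 2716 in WT A to C. Vdac2 (ENSMUSG00000021771, chr14:21825238-21845879, plus strand), whose protein also holds the apoptosis effector BAK, had 6777, 5548 and 5058 against 2342, 2321 and 2519. Vdac3 (ENSMUSG00000008892, chr8:22577075-22593813, minus strand) had 4146, 3183 and 1891 against 1295, 1355 and 1077. Even the lowest Mfn1-/- library was above all WT libraries for each gene, and Mfn1-/- library A was the highest for all 3.

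The differences were 1.38 ± 0.13 (SE, adjusted p = 1.45e-10) for Vdac1, 1.26 ± 0.10 (SE, adjusted p = 9.33e-12) for Vdac2 and 1.24 ± 0.16 (SE, adjusted p = 1.31e-07) for Vdac3, and each passed under every alternative. The Mfn1-/- effect at day +8 exceeded that at day -2 by 1.33 ± 0.18 (SE, adjusted p = 1.04e-06) for Vdac1, 0.97 ± 0.14 (SE, adjusted p = 4.79e-06) for Vdac2 and 1.00 ± 0.23 (SE, adjusted p = 0.00102) for Vdac3. The Vdac3 call was lost when only the comparison's own libraries were fitted (adjusted p = 0.0252) and with a term for the replicate letter over all days (0.0103). The 5 adipocyte genes in the table, which summed to 163794 to 185768 normalized counts in Mfn1-/- against 11157 to 14385 in WT A to C, moved the same way. The fibroblast list summed to 152171 to 262594 against 311225 to 564297, and the 2 cardiac muscle genes in the table to 1415 to 1459.9 against 115 to 153. The part of these lists in the differences at day +8 was not tested.

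At the 3 earlier days, 3 of the 9 Mfn1-/- comparisons of these genes passed, Vdac2 at day 0 and Vdac2 and Vdac3 at day +3. Vdac2 had 5011, 4563 and 4329.6 normalized counts in Mfn1-/- against 3534, 3115 and 3338 in WT A to C at day 0 (log2 difference 0.48, SE 0.10, adjusted p = 4.64e-04), and this call held under every alternative. At day +3 Vdac2 had 3967, 3132 and 3549.6 against 2734, 2369 and 2839 (log2 difference 0.42, SE 0.10, adjusted p = 0.00174), and Vdac3 had 2422, 2189.8 and 2424 against 1474, 1250.2 and 1721 (log2 difference 0.67, SE 0.16, adjusted p = 0.00177). Neither group pair overlapped. Both day +3 calls were lost when only the comparison's own libraries were fitted (adjusted p = 0.184 and 0.0451), with DESeq2 (0.158 and 0.0141) and without WT library B (0.0189 and 0.019), that of Vdac2 also without Mfn1-/- library A (0.0203) and that of Vdac3 with a term for the replicate letter over all days (0.0158). With the letter as a term within the day neither was lost. Vdac1 did not pass before day +8, with differences of 0.04, 0.38 and 0.39 at day -2, 0 and +3 (SE 0.13 each). With DESeq2, Vdac1 passed as higher at day 0 (adjusted p = 0.00419) and Vdac2 at day -2 (0.0047).

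In Mfn2-/- the channel genes split. At day +8 Vdac1 had 3367, 3505 and 3367 normalized counts in Mfn2-/- against 2292, 2197 and 2599 in WT D to F (log2 difference 0.53, SE 0.13, adjusted p = 7.62e-04), and Vdac2 had 4339, 4611 and 4346 against 1959, 1820.1 and 2002 (log2 difference 1.20, SE 0.10, adjusted p = 2.34e-11). Vdac3 had 1243, 1154 and 1247 in Mfn2-/- against 1397, 1492 and 1644 in WT D to F (log2 difference -0.31, SE 0.16, adjusted p = 0.113), each Mfn2-/- library below each WT library without passing. Vdac3 did pass as lower with only the comparison's own libraries (adjusted p = 0.00168) and with DESeq2 (6.89e-04). The rises of Vdac1 and Vdac2 held under every alternative. The marker lists moved with this comparison too. On this day the mesothelial list summed to 14531 to 15027 normalized counts in Mfn2-/- against 259 to 351 in WT D to F, and the 2 cardiac muscle genes in the table to 4288 to 4996 against 115 to 135. The fibroblast list summed to 84498 to 90464 against 304731 to 343808, and the adipocyte genes to 1603 to 1799 against 21317 to 42785. Their part in the rises of Vdac1 and Vdac2 was not tested.

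The Mfn1-/- effect at day +8 exceeded the Mfn2-/- effect for Vdac1 by 0.84 ± 0.18 (SE, adjusted p = 2.51e-04) and for Vdac3 by 1.55 ± 0.23 (SE, adjusted p = 1.82e-06), each under every alternative. For Vdac2 the 2 effects differed by 0.06 ± 0.14 (SE, adjusted p = 0.745), which did not pass. The Mfn2-/- effect on Vdac2 grew between day -2 and day +8 by 1.00 ± 0.14 (SE, adjusted p = 5.23e-06), and at day -2 Vdac2 had 2430.2, 2390.3 and 2707 normalized counts in Mfn2-/- against 2223, 2193 and 2121 in WT D to F. Vdac2 made up 37.8 ± 0.500% of the family per kilobase in Mfn2-/- at day +8, against 25.5 ± 1.07% in WT D to F, while in Mfn1-/- its share was 26.5 ± 2.34% against 27.7 ± 1.93% in WT A to C (SD, n = 3 each). At day -2, Vdac3 had 984, 1051 and 1049 in Mfn2-/- against 1463, 1468 and 1424 in WT D to F (log2 difference -0.50, SE 0.16, adjusted p = 0.0128), which passed only when the comparison's own libraries were fitted or with DESeq2. Vdac1 (log2 difference 0.36, adjusted p = 0.0206) and Vdac2 (0.20, 0.107) did not pass on that day either. Both passed as higher with only the comparison's own libraries (4.98e-07 and 0.00197) and with DESeq2 (6.59e-13 and 0.00111).

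Counts of Vdac3 need a caveat of their own, because a pseudogene copies it nearly base for base. The stretch below comes from the coding part of Vdac3 (transcript bases 403 to 522) and from the matching part of Vdac3-ps1 (bases 326 to 445, chr13:18030741-18031593, minus strand, GRCm38), in reading direction, with the differing bases in capitals.
Vdac3: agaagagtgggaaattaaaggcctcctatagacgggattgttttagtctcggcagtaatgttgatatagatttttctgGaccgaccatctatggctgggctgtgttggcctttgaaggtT
Vdac3-ps1: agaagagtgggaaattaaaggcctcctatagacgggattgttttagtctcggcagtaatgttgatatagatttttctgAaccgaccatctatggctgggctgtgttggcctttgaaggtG
These 120 bases differ at 2 positions, and the 853 aligned bases of the pair at 4 (99.53% identity). Reads assigned to Vdac3-ps1 came to between 1.10% and 1.90% of those assigned to Vdac3 in the Mfn1-/- and WT A to C libraries. In the Mfn2-/- and WT D to F libraries they came to between 30.6% and 37.3%. The level of Vdac3 can therefore not be compared between these 2 sets of libraries, while each knockout was compared with WT libraries of its own set. With the reads of both genes summed, the Mfn1-/- difference at day +8 was 1.24, and the Mfn2-/- differences were -0.50 at day -2 and -0.35 at day +8, with no call changed.

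**Figure D4:**
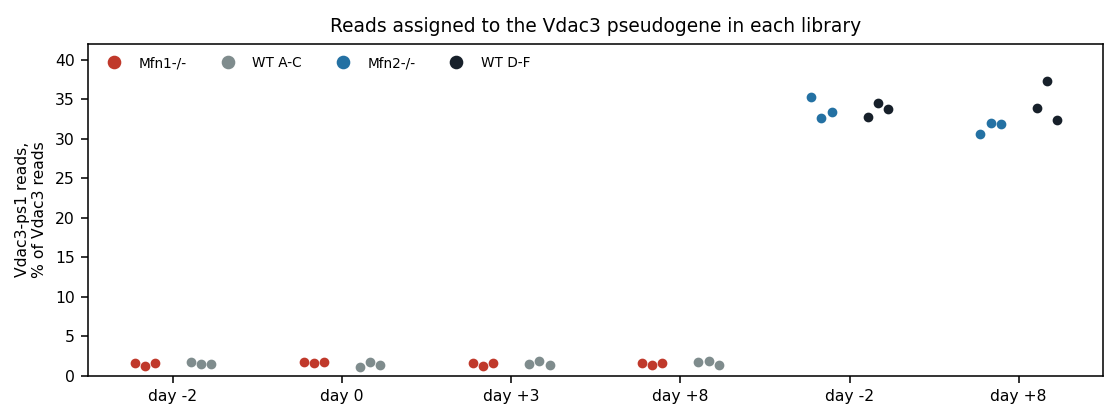
Reads assigned to Vdac3-ps1 as a percentage of the reads assigned to Vdac3 (y axis), 1 point per library, by line and day. The Mfn1-/- and WT A to C libraries lie at or below 1.90% and the Mfn2-/- and WT D to F libraries at or above 30.6%, with knockout and WT at like levels within each set.

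Mcu, the pore of the mitochondrial calcium uniporter, passed in none of the 20 comparisons in the main limma fit or in edgeR. An unadjusted p under 0.05 was reached in 3 of them in limma, and DESeq2 called 3. The gene (ENSMUSG00000009647) lies at chr10:59446984-59616692, minus strand. At day +8 it had 959, 748 and 539 normalized counts in Mfn1-/- against 673, 668 and 608 in WT A to C, with overlapping groups (log2 difference 0.17, SE 0.18, adjusted p = 0.424). In Mfn2-/- it had 294, 354 and 309 against 444, 412 and 404 in WT D to F (log2 difference -0.40, SE 0.18, adjusted p = 0.0597). All Mfn2-/- libraries lay below all WT libraries there, and the difference passed when only the comparison's own libraries were fitted (adjusted p = 0.00174), against all 6 WT libraries (0.00757) and with DESeq2 (0.00201). After TMM, the difference of day +8 from day -2 was -0.58 in Mfn2-/- (adjusted p = 0.0131) and -0.35 in WT D to F (0.12). Both passed as lower with only the comparison's own libraries (7.86e-05 and 4.39e-04) and with DESeq2 (1.72e-06 and 0.00466).

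Between days, values were rescaled together by TMM, and the largest movement of any member was that of Itpr3 during differentiation. In Mfn1-/- Itpr3 had 415, 1009 and 935 TMM-rescaled counts at day +8 against 3739, 3952 and 2345 at day -2 (log2 difference -2.15, SE 0.24, adjusted p = 7.41e-09). In WT A to C it had 1357, 1230.2 and 1435 against 3061, 3051 and 2937 (log2 difference -1.17, SE 0.24, adjusted p = 4.28e-04), and in WT D to F 1337, 1309 and 1019 against 3434, 3408 and 3479.7 (log2 difference -1.50, SE 0.24, adjusted p = 8.96e-06). No day +8 library of these groups reached a day -2 library of its line, and the 3 calls held under every alternative. In Mfn2-/-, where Itpr3 was already low at day -2, the difference was -0.70 ± 0.24 (SE, adjusted p = 0.026) and did not pass. The groups did not overlap there either, and the fall passed when only the comparison's own libraries were fitted (adjusted p = 1.30e-06) and with DESeq2 (1.01e-14).

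Itpr1 moved the other way in both WT sets. In WT A to C it had 1487, 1815 and 1854 TMM-rescaled counts at day +8 against 706, 809.7 and 1078 at day -2 (log2 difference 1.01, SE 0.21, adjusted p = 6.06e-04), and in WT D to F 1588, 1655 and 1819 against 735, 786 and 865 (log2 difference 1.09, SE 0.21, adjusted p = 1.38e-04). In Mfn1-/- the difference was 0.42 ± 0.21 (SE, adjusted p = 0.0924) and in Mfn2-/- -0.02 ± 0.21 (SE, adjusted p = 0.967), and neither passed. The Mfn2-/- effect on Itpr1 at day +8 minus that at day -2 was -1.14 ± 0.30 (SE, adjusted p = 0.00531), a call that was lost without any 1 of 7 of the 12 libraries: WT D or E and Mfn2-/- C at day -2, and WT E or F and Mfn2-/- A or B at day +8, with adjusted p up to 0.016.

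Vapb, Rmdn3 and the 3 Vdac genes were higher at day +8 than at day -2 in Mfn1-/-, and none of the 5 passed in WT A to C. Vdac1 had 10000.0, 7240.2 and 6146 TMM-rescaled counts in Mfn1-/- at day +8 against 3855, 4222 and 3648 at day -2 (log2 difference 0.97, SE 0.13, adjusted p = 1.93e-07). In WT A to C it had 2979, 2953 and 2756 against 4078, 4185 and 3507 (log2 difference -0.43, SE 0.13, adjusted p = 0.0118). The differences in Mfn1-/- were 0.78 ± 0.11 (SE, adjusted p = 4.09e-07) for Vapb, 1.14 ± 0.16 (SE, adjusted p = 6.01e-07) for Rmdn3, 0.86 ± 0.10 (SE, adjusted p = 2.85e-08) for Vdac2 and 0.91 ± 0.17 (SE, adjusted p = 3.22e-05) for Vdac3. That of Vdac3 was lost when only the comparison's own libraries were fitted (adjusted p = 0.0212). Vdac2 also rose in Mfn2-/- (log2 difference 0.75, SE 0.10, adjusted p = 1.55e-06), and there it had 5738, 6049.8 and 5684 against 3354, 3307 and 3747. Vapb in Mfn2-/- (0.30, adjusted p = 0.0317) and Rmdn3 in WT D to F (0.40, 0.0517) did not pass, though neither pair of groups overlapped. Both passed with only the comparison's own libraries (0.0014 and 0.0054) and with DESeq2 (5.5e-04 and 5.3e-04). In WT D to F, Vdac1 and Vdac2 went the other way, at -0.26 and -0.29, and passed as lower in the same fits.

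Pacs2 was higher at day +8 than at day -2 in WT D to F, with 1569.9, 1655 and 1390.1 TMM-rescaled counts at day +8 against 913, 976 and 1018 at day -2 (log2 difference 0.66, SE 0.15, adjusted p = 9.93e-04), and lower in Mfn2-/-, with 1380.4, 1586 and 1524 against 2441, 2387 and 2381 (log2 difference -0.68, SE 0.15, adjusted p = 0.00102). In Mfn1-/- and WT A to C the differences were 0.19 ± 0.15 (SE, adjusted p = 0.296) and 0.47 ± 0.15 (SE, adjusted p = 0.0216), and neither passed. In all, 6, 2, 2 and 3 of the 9 genes passed between day +8 and day -2 in Mfn1-/-, WT A to C, Mfn2-/- and WT D to F, where 43.2%, 15.3%, 17.6% and 25.4% of all genes did.

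**Figure D5:**
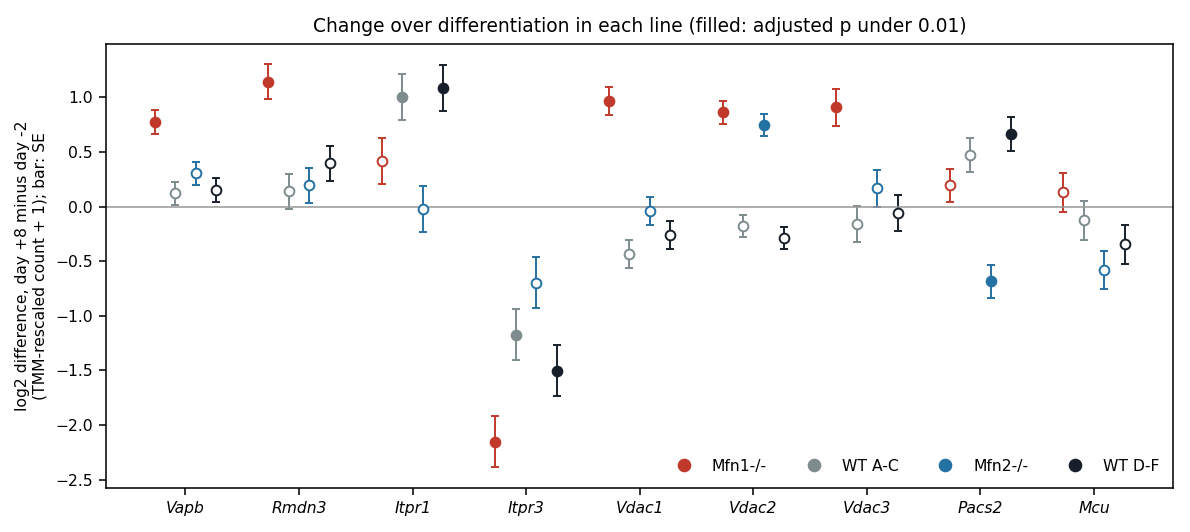
Log2 difference, day +8 minus day -2, of TMM-rescaled counts (y axis) for each of the 9 genes (x axis) in each of the 4 sets of libraries, with bars of 1 SE from limma and filled points where the adjusted p was under 0.01. Itpr3 lay at -2.15 in Mfn1-/-, the difference farthest from 0, and Vapb, Rmdn3, Vdac1 and Vdac3 passed in Mfn1-/-, Vdac2 in both knockout lines and Itpr1 in both WT sets.

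In single steps, Mfn1-/- had 0 of 9 genes passing between day 0 and day -2, 3 between day +3 and day 0 and 4 between day +8 and day +3, against 0.112%, 17.7% and 34% of all genes. With limma, 2 of the 9 genes (Itpr1 and Itpr3) reached an unadjusted p under 0.05 in the step to day 0, and DESeq2 and edgeR called 0 there. In WT A to C the counts were 1, 3 and 1, against 2.86%, 11.4% and 6.21% of all genes. Itpr3 was lower at day +3 than at day 0 in both lines, with a difference of -1.18 ± 0.24 (SE, adjusted p = 5.01e-04) in Mfn1-/- and of -1.47 ± 0.24 (SE, adjusted p = 3.62e-05) in WT A to C. Vdac2 rose in Mfn1-/- between day +3 and day +8 (log2 difference 0.89, SE 0.10, adjusted p = 3.16e-08), as did Vapb (log2 difference 0.64, SE 0.11, adjusted p = 1.44e-05) and Vdac1 (log2 difference 0.67, SE 0.13, adjusted p = 7.41e-05). With only the libraries of the step none of the 4 genes of that last step passed (adjusted p = 0.0189 for Vdac2), and DESeq2 called 1 of them.

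On the deposited scale, which was set separately for each day, the step between day +3 and day 0 differed in direction for Vdac2. There the differences were -0.39 in Mfn1-/- and -0.33 in WT A to C, both passing, against 0.03 and 0.04 after TMM, neither passing. The median over all genes shifted by up to -0.40 on the log2 scale between these scalings in day comparisons.

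Between the 2 knockout effects, 3 of 9 genes differed at day -2 (Itpr1, Itpr3 and Pacs2) and 4 at day +8 (Rmdn3, Vdac1, Vdac3 and Pacs2), where 20.9% and 37% of all genes did. Between days, 5 of 9 genes had a larger Mfn1-/- effect at day +8 than at day -2 and 3 had a changed Mfn2-/- effect, against 26.7% and 15.5% of all genes.

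Mfn2 RNA, the proposed tether, was 2358 ± 566 normalized counts in Mfn1-/- at day +8 against 1227 ± 37.6 in WT A to C, a rise of 0.91 ± 0.17 (SE, adjusted p = 2.98e-05). In Mfn2-/- it was 226 ± 12.7 against 942 ± 35.2 in WT D to F at day -2 and 245 ± 51.1 against 964 ± 46.8 at day +8 (SD, n = 3 each), so the targeted gene was low in the libraries labelled for its loss. The list of 12 other tethers held Mfn2. In Mfn1-/- 0 of its 12 genes passed at day -2, 0 and +3 in limma, where 2, 0 and 1 reached an unadjusted p under 0.05, edgeR called 0 at each day and DESeq2 called 2 at day -2 and 0 at the other days. At day +8, 3 rose in Mfn1-/- (Mfn2, Vapa and Bcap31) and 2 fell (Osbpl5 and Pdzd8), so that 5 of 12 passed where 50.2% of all genes did, with a list median of -0.16 against -0.07 over all genes. Vapa, the paralogue of Vapb that also binds RMDN3, had 2077 ± 16.7 normalized counts in Mfn1-/- against 1434 ± 42.7 in WT A to C. In Mfn2-/- 3 genes rose and 5 fell at day -2, and 3 rose and 4 fell at day +8, where 35.5% and 38.1% of all genes passed. The falls on both days include Mfn2 itself, the gene targeted in this line, so these counts are not free of the genotype. Fis1, a mitochondrial receptor for the ER protein BAP31, rose by 1.10 and 0.82 on these days, Vapa rose by 0.90 at day +8, and Rrbp1, a ribosome-binding ER protein, had differences of -1.14 and -1.04.

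Among genes that act beside the release channels, 8 of 10 were in the table. In Mfn1-/- at day +8, 4 rose and 2 fell, where 50.2% of all genes passed, the largest rise being that of Ero1l, an ER oxidase that acts on the receptors, with 11446 ± 8773 normalized counts in Mfn1-/- against 695 ± 134 in WT A to C (SD, n = 3 each). Hspa9, the chaperone GRP75 that links the receptors to VDAC1, had 8795 ± 1233 in Mfn1-/- against 20771 ± 2585 in WT A to C at day -2, and 7471 ± 87.9 in Mfn2-/- against 15471 ± 1042 in WT D to F at day +8. It passed as lower in Mfn1-/- at day -2 and 0 and in Mfn2-/- at both days. Tgm2, a transglutaminase that binds GRP75, rose in Mfn2-/- by 3.02 at day -2 and 1.03 at day +8.

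Of 12 genes of ER calcium uptake and refilling, 9 were in the table. Atp2a3, an ER calcium pump, had 4560.0 ± 1779 normalized counts in Mfn1-/- at day +8 against 145 ± 58.7 in WT A to C, a rise of 4.95 (adjusted p = 2.46e-10), and 42.6 ± 9.90 in Mfn2-/- against 196 ± 77.0 in WT D to F, a difference of -2.13. Orai2, a plasma membrane calcium channel subunit, had differences of -1.30 in Mfn1-/- and 1.28 in Mfn2-/- at day +8. In these 2 genes the 2 lines thus moved in opposite directions relative to their own WT, and the Mfn1-/- effect minus the Mfn2-/- effect at day +8 was 7.08 ± 0.65 (SE, adjusted p = 3.18e-10) for Atp2a3 and -2.57 ± 0.29 (SE, adjusted p = 1.07e-08) for Orai2. The list as a whole gave 2 rises and 2 falls in Mfn1-/- at day +8, and 2 rises and 1 fall in Mfn2-/-, so that 4 and 3 of 9 passed where 50.2% and 38.1% of all genes did.

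Beside Mcu, 5 of 9 uniporter partners and exchangers rose in Mfn1-/- at day +8 (Micu3, Smdt1, Mcur1, Letm1 and Ghitm), and 3 of 9 fell in Mfn2-/- (Mcur1, Slc8b1 and Letm1), where 50.2% and 38.1% of all genes passed. Letm1, an inner membrane ion exchanger, had 1937 ± 799 normalized counts in Mfn1-/- against 724 ± 164 in WT A to C, and 307 ± 25.5 in Mfn2-/- against 851 ± 158 in WT D to F (SD, n = 3 each). The list median was 0.74 in Mfn1-/- against -0.07 over all genes, and -0.25 in Mfn2-/- against -0.03. Mcub, which encodes a pore subunit that dampens the uniporter, had 21.4 ± 0.276 in Mfn2-/- against 108 ± 11.3 in WT D to F at day -2.

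Of 7 other outer membrane genes, used to set the channel genes beside the import machinery, 6 rose in Mfn1-/- at day +8 and 0 of 7 passed in Mfn2-/-, where 50.2% and 38.1% of all genes passed. Tomm40, the import pore, had 2207 ± 683 normalized counts in Mfn1-/- against 519 ± 117 in WT A to C, and Samm50, which inserts barrel proteins such as VDACs, had 3992 ± 1519 against 1601 ± 154. The rises of 2.06 and 1.25 were of the order of those of the Vdac genes. The list median was 0.79 in Mfn1-/- and 0.07 in Mfn2-/-. In Mfn2-/- at day +8, 2 of the 7 genes (Tomm70a and Mtx2) reached an unadjusted p under 0.05 in limma, edgeR called 0 and DESeq2 called 2.

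Among 6 lipid enzymes of the contact, 3 rose and 1 fell in Mfn1-/- at day +8, and likewise 3 and 1 in Mfn2-/-, where 50.2% and 38.1% of all genes passed. Dgat2, which makes triglyceride, had 1809.6 ± 566 normalized counts in Mfn1-/- against 267 ± 101 in WT A to C, and 116 ± 4.27 in Mfn2-/- against 695 ± 208 in WT D to F. Soat1, which esterifies cholesterol, rose in Mfn2-/- by 1.33 at day -2 and 1.71 at day +8.

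Per kilobase of exon, after TMM, the 9 genes spanned a wide range of levels. Vdac1 had the highest level in each group of day -2 and day +8, with 2975 ± 758 TMM-rescaled counts per kilobase in Mfn1-/- and 1105 ± 46.4 in WT A to C at day +8, and Vdac2 the next, with 1262 ± 188 and 513 ± 20.0. Mcu had 112 ± 31.2 and 95.8 ± 5.93, and Itpr1 had 70.1 ± 16.3 and 93.8 ± 11.0 (SD, n = 3 each). Itpr1 or Mcu was lowest in each of these groups. Such orders depend on the exon lengths used, for instance 2620 bases for Vdac1 and 4769 for Vdac2. Before division by length, Vdac2 lay above Vdac1 in Mfn2-/- at day +8, at 5824 ± 198 against 4485 ± 101 TMM-rescaled counts (SD, n = 3 each). The orders of groups that follow cross the 2 sets of libraries, and the part of any set difference in them was not tested. Across the 12 groups, the mean level of Vdac1 was highest in Mfn1-/- at day +8, whose libraries did not overlap those of the next group, Mfn1-/- at day +3. For Vdac2 the top groups, Mfn1-/- and Mfn2-/- at day +8, overlapped each other and lay above the other 10. Vapb, Rmdn3, Vdac3 (with the limit between sets given for it) and Mcu were also highest on average in Mfn1-/- at day +8, in each case overlapping the next group, Itpr1 and Pacs2 were highest in Mfn2-/- at day -2, overlapping the next, and Itpr3 was highest in WT D to F at day -2, again overlapping the next.

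Over the 12 group means of log2 values, genes whose pattern was among the most like that of a member were Ccdc47 and Fmc1 for Vapb (Pearson r 0.97 and 0.97), Taco1 and Cycs for Rmdn3 (0.97 and 0.97), Ankra2 for Itpr1 (0.95) and Plxna1 and Ccdc120 for Itpr3 (0.93 and 0.92). For Vdac1 they were Iars2 and Mrps9 (0.96 and 0.95), for Vdac2 Sccpdh and Ubxn1 (0.95 and 0.95), for Vdac3 Ppcs and Hint2 (0.96 and 0.94), for Pacs2 Fbn2 and Sema6c (0.93 and 0.92) and for Mcu Usp3 and Fam214b (0.93 and 0.91). In all, 10401 genes were compared, and the points share their libraries and scaling, so the values are a description, that of Vdac3 also carrying the unequal split with its pseudogene between the sets. The 12 means cross both sets of libraries, so any difference between the sets enters each r.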

How the data were processed

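PolyA RNA of 36 MEF libraries was sequenced in paired ends (TruSeq kit, NovaSeq). Per the labels, reads were trimmed with cutadapt, aligned to GRCm38 with STAR, handled with SAMtools and counted per gene with featureCounts, versions and strand setting not being given in the sources used here. The deposited signal values are gene counts that the authors divided by 1 factor per library, in 6 scaling blocks of 6 libraries, and whole reads were recovered for 100% of the values within 0.01 reads. The 19 symbols that stood in 64 to 729 identical lines were merged, which left 14761 genes. Of these, 14727 (99.77%) matched 1 gene of GENCODE vM21, the source of coordinates and exon lengths, which include retained introns. Total reads per library were 8800674 to 37011894 (median 12641490), and this depth sets the counting error.

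A gene was kept where 3 or more libraries had 10 or more normalized counts. Values were fitted as log2(value + 1) in limma 3.58.1 under R 4.3.3, using its trend and robust options, with all 36 libraries in 1 model of 12 group means and Benjamini-Hochberg adjustment. Knockout comparisons used the deposited scale and the WT libraries of the same block. Day comparisons cross blocks and used recovered reads rescaled by TMM (edgeR 4.0.16). Alternatives were pseudocounts of 0.5 and 5, no filter or a filter at 50, the other scaling, only the libraries of a comparison, all 6 WT libraries of the day, edgeR, DESeq2 1.42.0, a replicate block and leaving out each library. A block within the day and the summing of Vdac3 with Vdac3-ps1 were added after seeing the data. Transcripts like those of the members were searched with blastn 2.17.0. The 853 aligned bases of Vdac3 and Vdac3-ps1 come from a separate alignment of the 2 transcripts without gaps.

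The members, gene lists and tests were chosen with earlier results of these data known. Besides the members and the mitofusins, the genes named are the up to 2 largest rises and falls per list and knockout comparison at day -2 and day +8 with a mean of at least 100, and for each member the 2 genes with the highest Pearson r, of which 1 is not reported here. Vdac3-ps1 and genes named in counts were chosen after their values were seen. Same-lettered Mfn1-/- and WT A to C libraries deviated together at day +3 (r 0.30, 0.42 and 0.54) and day +8 (0.20, 0.19 and 0.29), which pairs them by letter within those days, with the replicate letter taken from the labels. At day -2 (0.04, 0.20 and 0.22) and day 0 (0.10, 0.07 and 0.16) not every pair passed 0.1. The 6 Mfn2-/- columns carry other letters than their labels and were not paired. The motifs and promoter windows (RefSeq, GRCm38.p6) are a description.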

Additional observations from a re-analysis of the deposited data

Results flagged for a closer look

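The results below are those where the 2 knockout effects, or 1 knockout effect at 2 days, differed by a test of the difference itself (limma over all genes, adjusted p under 0.01). At day -2 the Mfn1-/- effect minus the Mfn2-/- effect was -1.23 for Itpr1, 1.18 for Itpr3 and -2.16 for Pacs2. At day +8 it was 1.22 for Rmdn3, 0.84 for Vdac1, 1.55 for Vdac3 and -1.13 for Pacs2. The Mfn1-/- effect at day +8 minus that at day -2 was 0.59 for Vapb, 0.93 for Rmdn3, 1.33 for Vdac1, 0.97 for Vdac2 and 1.00 for Vdac3. The Mfn2-/- effect at day +8 minus that at day -2 was -1.14 for Itpr1, 1.00 for Vdac2 and -1.39 for Pacs2. Each value is on the log2 scale and sets a knockout against the WT libraries of its own set, so the 2 WT sets enter every comparison of the knockout lines.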

How the results depend on the processing

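In all, 90 values of single members passed in the main fit or in an alternative other than leaving out 1 library. Over these values, 1320 alternatives kept the side of the threshold, 92 lost the call, 64 gained it and 2 turned round. Where neither the main fit nor the alternative passed, the alternative was counted as kept whatever its direction. Both that turned were Vdac2 between day +3 and day 0 on the authors' scale, at -0.39 in Mfn1-/- and -0.33 in WT A to C. With only the libraries of the comparison, the number of members called was 0 for Mfn1-/- at day +3, 4 at day +8, 6 for Mfn2-/- at day -2 and 5 at day +8. In the same fits it was 5 for Mfn2-/- and 7 for WT D to F between day +8 and day -2, 0 for both later steps of Mfn1-/-, 1 and 0 for those of WT A to C, and 2 for the change of the Mfn1-/- effect. With DESeq2 it was 2 and 0 for Mfn1-/- at day -2 and +3, 6 and 5 for Mfn2-/- at day -2 and +8, 5 and 7 for Mfn2-/- and WT D to F between day +8 and day -2, 1 for the last step of Mfn1-/-, and 2, 1 and 0 for the steps of WT A to C. Against all 6 WT libraries it was 0 for Mfn1-/- at day -2 and 4 for Mfn2-/- at day +8. On the authors' scale it was 4 for WT A to C between day +8 and day -2, 1 for Mfn1-/- between day 0 and day -2, and 2 for the first and the last step of WT A to C. Where leaving out 1 library moved a count, it ran from 0 to 4 for Mfn1-/- at day +3 (0 without WT library B, 4 without WT library C, 1 without Mfn1-/- library A), 2 to 4 for WT A to C between day +8 and day -2 (4 without library C of day -2), and 1 to 5 for Mfn1-/- between day +3 and day 0 (1 without library A of day 0 or C of day +3, 5 without C of day 0). For the steps of WT A to C it ran from 0 to 1 (0 without A or B of day -2 or B or C of day 0), from 1 to 3 (1 without B or C of day 0 or A or C of day +3) and from 1 to 2 (2 without B of day +3), and from 1 to 3 for the difference of the effects at day -2 (1 without WT library C). The causes were not tested. The fits on only the libraries of a comparison, DESeq2 among them, hold fewer libraries and take the spread from these alone.

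With the replicate block (a term for the letter over all days) the number of members called was 1 for Mfn1-/- at day +3 (Vdac3 lost, adjusted p = 0.0158), 1 for Mfn1-/- between day +3 and day 0, 0 and 1 for the steps of WT A to C to day 0 and day +3, 7 for WT D to F between day +8 and day -2, and 3 for the change of the Mfn1-/- effect between day -2 and day +8 (Vapb and Vdac3 lost). With the block within the day, which is the pairing that the deviations bear out at day +3 and day +8, the counts were 2 and 7 there, and no call of a member changed. For these fits too the share of all genes is not given.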
